A study of Mus musculus with 24 samples.

Results

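The FHL and PDLIM genes encode LIM domain proteins that sit on actin filaments. The members were taken by name: Fhl1, Fhl2, Fhl3, Pdlim1, Pdlim2, Pdlim3, Pdlim4, Pdlim5 and Pdlim7, 9 genes in all. They are read by 17 of the 25697 probes of a mouse bead array, of which 16 passed the filter on dim probes. All 9 genes are therefore among the 11008 genes or unnamed probes that were tested. Each gene is described by its brightest probe unless another is named, and levels are normalized log2 bead signals, in which 1 unit is a doubling.

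The 24 arrays measured total RNA from the caudal end of mouse embryos (strain C57Bl/6), dissected behind the last segment. They form 6 groups of 4, control and Srf knockout at the embryonic stages E8.5, E8.75 and E9.0 (embryonic days). The knockouts carry the genotype label Srf(-/-) and the name SRFcko. The controls are labelled Srf(+/-) but titled wt, so they may already lack 1 functional Srf allele. According to the growth protocol, both came from parents of the genotype SRF(flex1/+); T:cre/T:cre, so the controls also carry T:cre, a Cre recombinase driven by the T gene. T is active in the primitive streak and the mesoderm it forms, so cells of the caudal end that never used T would keep the allele. How many embryos went into an array is not stated, so the p-values rest on array-to-array spread that could be technical alone.

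A LIM domain is a pair of zinc fingers that binds other proteins. FHL proteins are built of LIM domains alone, and several move between actin filaments and the nucleus. FHL2 is a transcriptional cofactor known to bind SRF, the factor deleted here. PDLIM proteins join a PDZ domain, which docks on alpha-actinin, to 1 or more LIM domains and so place kinases and other partners on stress fibres and, in muscle, on Z discs. SRF, with its actin-regulated cofactors of the MRTF family, drives many genes of the actin cytoskeleton through a DNA motif called the CArG box.

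Between 11329 and 13685 probes were detected per array, and the median bead intensity was 145 to 173 on the arrays of E8.75 against 36.8 to 45.9 at the other stages. All arrays of E8.75 were the bright ones, so stage and brightness cannot be told apart there. The median SD within groups (log2) was highest at E8.75, 0.22 against 0.17 and 0.15 before and after. In the knockouts Srf signal had a mean log2 fold change of -0.97 over the stages (adjusted p = 0.00011 by limma). Control E8.75 replicate 4 read 8.10 for Srf, within the knockout range of 7.64 to 8.51, and its effect on each member is given where it changes a call. Of 9 genes that mark the caudal end, 7 (Tbx6, Dll1, Fgf8, Wnt3a, Cdx2, Hes7 and Nkx1-2) were detected in every group. The others, T and Msgn1, were not among the features tested. With bulk tissue, fewer cells of a type and less RNA per cell cannot be told apart.

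Fhl2 was the member with the largest fall. At E8.5 the levels were 6.88, 6.98, 6.81 and 6.96 in controls and, in knockouts, 6.37, 5.65, 5.76 and 6.34. At E8.75 the controls read 7.42, 7.11, 7.35 and 6.71, and the knockouts 5.89, 5.92, 5.54 and 5.84. By E9.0 the controls stood at 6.76, 6.96, 6.70 and 6.88, the knockouts at 5.46, 4.98, 5.33 and 5.26. Every knockout array lay below every control of its stage, and the 3 control means (6.91, 7.15 and 6.82) were closer to each other than the knockout means (6.03, 5.80 and 5.26).

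The log2 fold change of Fhl2 was -0.87 ± 0.16 at E8.5 (SE, 4 arrays against 4, adjusted p = 0.0638 by limma), which missed the threshold of 0.05. It fell by 1.35 ± 0.16 at E8.75 (adjusted p = 0.000103) and fell by 1.56 ± 0.16 at E9.0 (1.98e-06), which is 2.55-fold and 2.96-fold. Averaged over the stages it fell by 1.26 ± 0.09 (5.34e-09), and 14 of 11008 features had a more negative mean. By p it ranked 3rd of all features for the mean. The difference between the E9.0 and E8.5 effects, -0.69 ± 0.23, did not pass (adjusted p = 0.177). At E8.5 the call appeared without knockout replicate 1 (adjusted p = 0.0326), without knockout replicate 4 (0.041) or without the arrays of E8.75 (0.039). It also appeared with array weights (0.000307) and in the run that took the mean of each gene's probes (0.0475). At E8.75 the call also stood without control replicate 4 (adjusted p = 1.48e-05). In the values normalized by the authors Fhl2 fell by 0.87 at E8.75, fell by 0.89 at E9.0 and fell by 0.77 for the mean, and these calls stood.

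**Figure D1:**
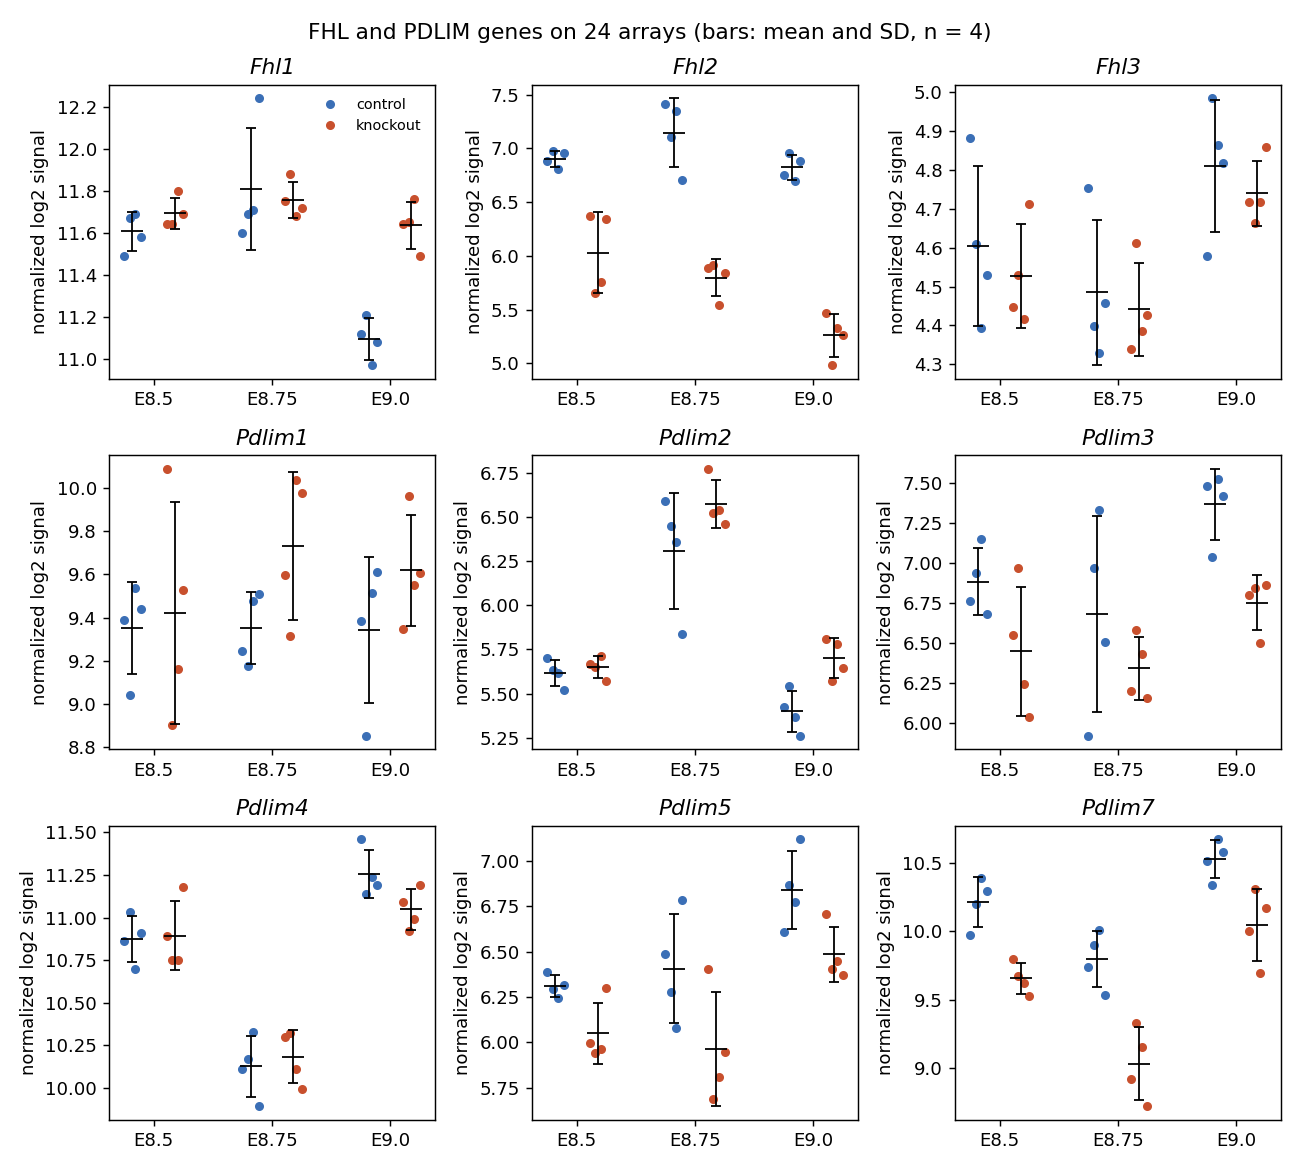
Normalized log2 signal (vertical axis, own scale for each panel) of the 9 genes on every array, by stage and genotype; points are arrays and black bars the mean and SD of 4. Fhl2 knockouts lie below all controls at each stage, and Fhl1 controls at E9.0 lie apart from the other groups, at 10.97 to 11.21.

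Promoter windows were searched for the CArG box, and both annotated starts of Fhl2 have one. RefSeq windows (GRCm38.p6) of 300 bases, from 250 before to 50 after a start, were found for 8 of the 9 genes, 11 windows in all. The motif reads the same on both strands. An exact match stood in 1.63% of 32841 windows of this length, and in at least 1 window of 1.81% of the 27018 genes. Among the members it was found in Fhl2 and in Fhl1, whose signal went the other way. The bases before each start are shown here for these windows, with the CArG box in capitals.
Fhl2 start 1, chr1:43196762-43197011 (minus strand): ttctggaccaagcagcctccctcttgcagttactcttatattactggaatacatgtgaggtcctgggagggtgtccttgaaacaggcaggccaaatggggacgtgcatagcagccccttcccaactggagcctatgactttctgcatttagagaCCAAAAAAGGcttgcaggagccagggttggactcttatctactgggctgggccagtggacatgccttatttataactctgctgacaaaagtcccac
Fhl2 start 2, chr1:43163962-43164211 (minus strand): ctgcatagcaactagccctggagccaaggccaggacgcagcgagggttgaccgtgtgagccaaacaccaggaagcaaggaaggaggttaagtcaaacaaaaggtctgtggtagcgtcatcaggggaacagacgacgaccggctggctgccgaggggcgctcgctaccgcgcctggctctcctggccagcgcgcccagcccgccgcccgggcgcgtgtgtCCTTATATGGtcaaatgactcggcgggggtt
Fhl1 start 1, chrX:56779433-56779682 (plus strand): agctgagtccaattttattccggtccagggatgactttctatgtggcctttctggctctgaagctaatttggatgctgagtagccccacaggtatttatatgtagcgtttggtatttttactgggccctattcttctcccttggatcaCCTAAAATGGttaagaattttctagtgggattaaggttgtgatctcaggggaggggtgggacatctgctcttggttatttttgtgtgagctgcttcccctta
The box begins 96 bases before the start in the first Fhl2 window, 31 in the second and 102 in the Fhl1 window. The second annotated start of Fhl1 had none, nor had the windows of Fhl3, Pdlim1, Pdlim3, Pdlim4, Pdlim5 and Pdlim7. A match is a run of letters in a window and was not tested for binding, and these windows do not cover more distant elements.

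Pdlim7 encodes Enigma, which ties kinases to actin through its LIM domains, and it showed the next largest fall over the stages. At E8.5 its control levels were 9.97, 10.20, 10.39 and 10.29, those of the knockouts 9.80, 9.68, 9.62 and 9.53. At E8.75 the controls read 9.74, 9.90, 10.01 and 9.54, and the knockouts 8.92, 9.33, 9.16 and 8.72. Control levels at E9.0 were 10.51, 10.34, 10.67 and 10.58, against 9.70 to 10.31 in the knockouts. The groups did not overlap at any stage, although E9.0 knockout replicate 2 (10.31) came close to the lowest control (10.34).

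By stage, Pdlim7 had a log2 fold change of -0.56 ± 0.14 at the first stage (adjusted p = 0.771 by limma), fell by 0.76 ± 0.14 at E8.75 (0.0128) and fell by 0.48 ± 0.14 at E9.0 (0.028; errors are SE). Averaged over the stages the fall was 0.60 ± 0.08 (adjusted p = 0.00011), in all 24 fits that left out 1 array. The call at E8.75 was lost when just those 2 groups were fitted (adjusted p = 0.219), and without control replicate 3 (0.0514) or knockout replicates 1 (0.0601) or 4 (0.0806). That at E9.0 was lost without control replicates 1 (0.0521), 3 (0.0856) or 4 (0.0732) or knockout replicates 1 (0.062) or 3 (0.113).

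Pdlim3 and Pdlim5 were lower over the stages, by smaller amounts. Pdlim3, also known as ALP, binds alpha-actinin at the Z discs of muscle. At E9.0 it stood at 7.48, 7.04, 7.52 and 7.42 in controls and in knockouts at 6.80, 6.84, 6.50 and 6.86, with no overlap. At E8.5 the controls ran from 6.68 to 7.15 and the knockouts from 6.04 to 6.97, and at E8.75 from 5.92 to 7.33 and from 6.16 to 6.58. The groups of both earlier stages overlapped, and the E8.75 controls were widely spread (SD 0.61).

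The mean effect on Pdlim3 was a fall of 0.46 ± 0.13 (SE, adjusted p = 0.0276 by limma), a call lost without knockout E8.5 replicate 4 (0.0507). No single stage passed: the log2 fold changes were -0.43, -0.34 and -0.61, with adjusted p of 1, 0.567 and 0.0707. At E9.0 the call appeared without the arrays of E8.75 (0.0197), with only the groups compared (0.00805), with the authors' normalized values (0.0487) and with array weights (0.0113). Array weights, which count arrays far from the fit for less, also gave a call at E8.75 (-0.84, adjusted p = 0.0127), where leaving out 1 array moved the value between -0.59 (without control replicate 1) and -0.12 (without control replicate 3) with no call. A dimmer Pdlim3 probe gave -0.31, -0.36 and -0.43 at the 3 stages and was not called for the mean (adjusted p = 0.104 over all probes).

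Pdlim5, or ENH, carries protein kinase C to alpha-actinin, and 3 of its 4 probes passed the filter. For the brightest, control levels at E8.5 were 6.39, 6.30, 6.25 and 6.31, and knockout levels 6.00, 5.94, 5.96 and 6.30. The E8.75 controls ran from 6.08 to 6.79 and the knockouts from 5.69 to 6.41. At E9.0 the former read 6.61, 6.87, 6.77 and 7.12, the latter 6.71, 6.41, 6.45 and 6.37. Knockout and control arrays overlapped at every stage, by 1 knockout array at E8.5 and at E9.0. Averaged over the stages Pdlim5 fell by 0.36 ± 0.09 (SE, adjusted p = 0.0155 by limma), a call kept in all 24 fits without 1 array. Its dimmer kept probes gave -0.28 and -0.20 for the mean, neither called (adjusted p = 0.102 and 0.148 over all probes). At the brightest probe the stages alone gave -0.26, -0.45 and -0.36, with adjusted p of 1, 0.215 and 0.132. At E9.0 Pdlim5 passed with the mean of its probes (-0.50, adjusted p = 0.00966), with array weights (0.0453) and without the arrays of E8.75 (0.039).

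The other kept Pdlim5 probes, ILMN_2771219 and ILMN_3137570, are annotated to a different transcript from the brightest and followed a different time course. ILMN_3137570 read 5.09, 5.47, 5.34 and 5.40 in the E8.5 controls and 6.98, 6.82, 6.73 and 6.83 in the E9.0 controls. It was not well above background on any array of E8.75. From E8.5 to E9.0 the controls rose by 1.51 at this probe and by 1.30 at ILMN_2771219, against 0.53 at the brightest. In the E9.0 knockouts ILMN_3137570 read 6.17, 6.38, 6.32 and 6.35, below all controls. There it fell by 0.54 (adjusted p = 0.0152 over all probes, by limma) and ILMN_2771219 fell by 0.61 (0.0248), whereas at E8.5 their log2 fold changes were -0.04 and 0.06. The E9.0 effects minus those at E8.5, -0.49 and -0.68, did not pass (adjusted p = 0.327 and 0.252). ILMN_2771219 was above background on 3 of 4 controls and 2 of 4 knockouts of E8.75.

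**Figure D2:**
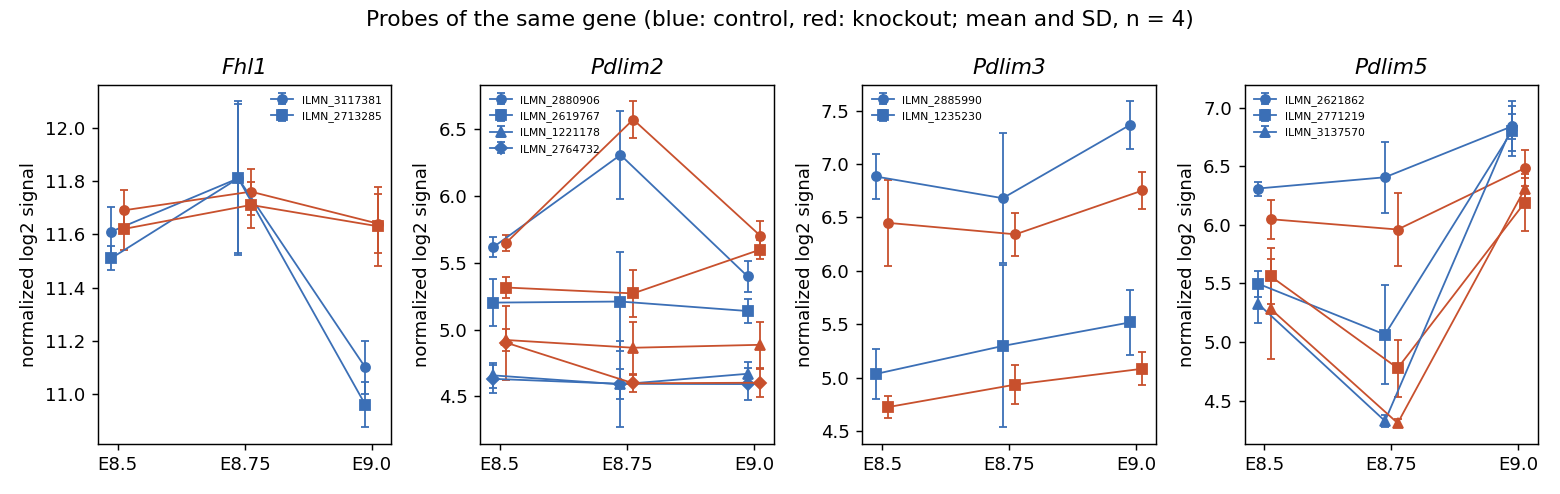
Normalized log2 signal (vertical axis) of every kept probe of the 4 genes with more than 1, against stage; symbols are means of 4 arrays and bars the SD, blue for controls and red for knockouts. The 2 Fhl1 probes run together, and ILMN_2771219 and ILMN_3137570 of Pdlim5 rise from E8.5 to E9.0 in both genotypes, to lower means in the knockouts (6.19 and 6.31 against 6.80 and 6.84).

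Fhl1 was the member that rose. It encodes a LIM protein abundant in skeletal and cardiac muscle and lies on the X chromosome. At E9.0 its levels were 11.12, 11.21, 10.97 and 11.08 in controls and, in knockouts, 11.64, 11.65, 11.76 and 11.49, so the knockouts were higher on every array. At E8.5 the controls ran from 11.49 to 11.69 and the knockouts from 11.64 to 11.80. At E8.75 they ran from 11.60 to 12.24 and from 11.68 to 11.88, and the highest value was control replicate 4. The groups overlapped at both earlier stages, and the E9.0 knockouts lay at the level of the E8.5 arrays.

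At E9.0 Fhl1 rose by 0.54 ± 0.12 (SE, adjusted p = 0.00291 by limma), a 1.45-fold difference. The log2 fold change was 0.08 at E8.5 (adjusted p = 1) and -0.05 at E8.75 (0.906), where it was 0.09 without control replicate 4. A second probe, annotated to another transcript, gave 0.12, -0.10 and 0.67, the last with an adjusted p of 0.000517 over all probes. In the controls Fhl1 fell by 0.51 ± 0.12 from E8.5 to E9.0 (adjusted p = 0.002). In the knockouts the same change was -0.05 ± 0.12 (adjusted p = 0.783). The test that the genotype effect differs between stages did not pass at the brightest probe (adjusted p = 0.126) and passed at the other (0.0435 over all probes). Because Fhl1 is X-linked, the sex of the embryos was looked at: at E9.0, Xist lay above Kdm5d of the Y on 3 of 4 arrays of controls and 4 of 4 of knockouts, against 2 and 1 of 4 at E8.5. At E8.75 the arrays were 1 of 4 and 4 of 4. The number of embryos per array is not stated, so these counts need not give the sex of single embryos. The part of sex in the Fhl1 result was not tested.

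The remaining members had no call between genotypes. Pdlim2, whose product targets NF-kB and STAT factors for degradation, read 5.43, 5.54, 5.37 and 5.26 in the E9.0 controls and 5.81, 5.57, 5.78 and 5.65 in the knockouts. These groups did not overlap, and the log2 fold change was 0.30 ± 0.12 (SE, adjusted p = 0.113 by limma). It passed with array weights (0.00352), without the arrays of E8.75 (0.0214) and with only the groups compared (0.0459). Of its 3 dimmer probes, ILMN_2619767 rose by 0.46 at E9.0 (adjusted p = 0.0318 over all probes), while the other two were not above background on most arrays. At E8.5 and E8.75 the values at the brightest probe were 0.03 and 0.26.

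Pdlim1, which links alpha-actinin to stress fibres, differed between genotypes by 0.07, 0.38 and 0.28 on the log2 scale, in order of stage. Its arrays were spread over 8.90 to 10.09 in the E8.5 knockouts alone, and the adjusted p values by limma were 1, 0.484 and 0.444. Pdlim4, or RIL, stood between 10.70 and 11.18 at E8.5, between 9.89 and 10.33 at E8.75 and between 10.92 and 11.46 at E9.0. Its genotype differences of 0.01, 0.06 and -0.21 had adjusted p of 1, 0.9 and 0.276. Fhl3, which binds actin in muscle cells, was at the edge of detection: its probe was above background on 1 E8.5 control, 3 E9.0 controls and 1 E9.0 knockout and on no other array, so no fold or direction is read from it. A missed threshold does not show that these genes had equal levels.

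**Figure D3:**
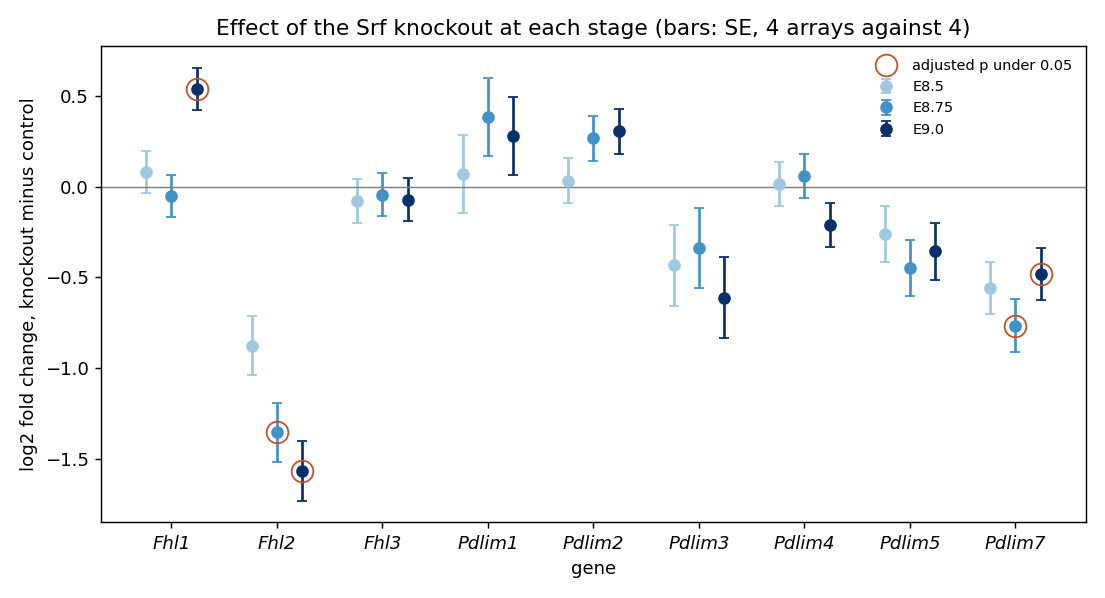
Log2 fold change of each gene, knockout minus control (vertical axis), at the 3 stages; points are estimates from 4 arrays against 4, bars the SE, and red rings mark an adjusted p under 0.05. Fhl2 reads -0.87, -1.35 and -1.56, Pdlim7 stays between -0.76 and -0.48, and Fhl1 stands at 0.54 at E9.0 alone.

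As a group, the 9 genes went both ways. At E8.5, 0 of 9 passed in limma, where 0.00908% of all features did. There 2 members had an unadjusted p under 0.05, as had 209 of 11008 features. At E8.75, 2 of 9 fell and 0 rose (22.2%, against 0.527% of all features). At E9.0, 2 fell and 1 rose (33.3%, against 13.2%). For the mean over the stages 4 fell and 0 rose (44.4%, against 8.14%). The median over the 9 was -0.06 (0.0048 for all features). That median is the value of Fhl3, which was at the edge of detection, so no shift of the group is read from it. Rises for the mean appeared in some alternatives. Fhl1 (0.19, adjusted p = 0.0808) passed with array weights (0.00313), with the mean of its probes (0.0452), without the arrays of E8.75 (0.00595) and without control E8.75 replicate 4 (0.24, 0.00568), and narrowly passed with offset 50 in the background correction. Pdlim2 (0.20, adjusted p = 0.085) passed with array weights (0.00452), with the mean of its probes (0.0254) and without control E8.75 replicate 1 (0.0345). Arrays of the 2 genotypes did not overlap for 2 members at E8.5 (2.03% of all features), 2 at E8.75 (4.01%) and 5 at E9.0 (25.5%). The change of the genotype effect between stages was called for 0 of 9 members at the brightest probes (0.945% of all features). The E9.0 effect minus that at E8.5 was also called for 0 (0.845%). In each of these tests 2 members had an unadjusted p under 0.05, where 1446 and 1332 of 11008 features had one. Over all 14927 probes, 0.0067%, 0.409%, 11.7% and 6.42% were called at the 3 stages and for the mean, 26.7% and 25.8% between E8.5 and E9.0 in controls and knockouts, 0.75% for the change of the effect between stages and 0.583% for the E9.0 effect minus that at E8.5. In the lower direction alone the calls over features were 0.00908%, 0.164%, 5.9% and 3.48%. Between E8.5 and E9.0, 3 members did not overlap in controls and 2 in knockouts (34.7% and 29.5%).

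**Figure D4:**
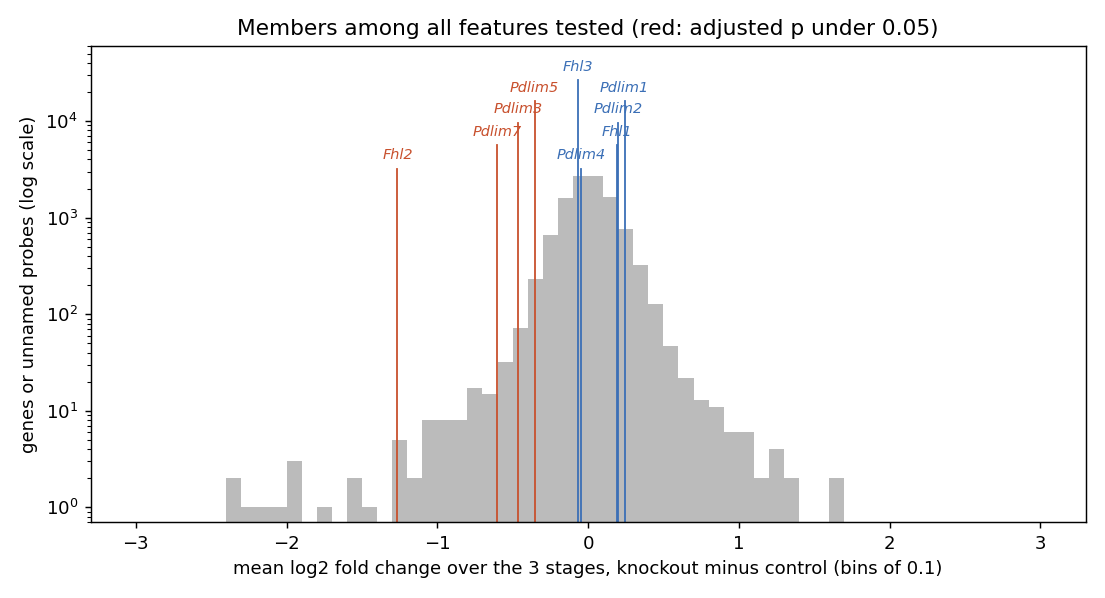
Number of features (vertical axis, log scale) by mean log2 fold change over the 3 stages in bins of 0.1, with the 9 members as lines, red where the adjusted p is under 0.05. Fhl2 at -1.26 and Pdlim7 at -0.60 lie in the lower tail, where 14 and 74 of 11008 features are lower still. The 5 uncalled members lie between -0.06 and 0.24, and the low end is Fhl3, at the edge of detection.

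Across time in the controls, 3 of 9 members changed from E8.5 to E9.0, a share of 33.3% near the 26.4% of all features. Besides Fhl1, Pdlim5 rose by 0.53 ± 0.15 (SE, adjusted p = 0.0127 by limma) and Pdlim4 by 0.38 ± 0.12 (0.022). The Pdlim5 call was lost without control E9.0 replicate 4 (0.0571), and that of Pdlim4 without control E8.5 replicate 3 (0.0756) or control E9.0 replicate 1 (0.0865). In the knockouts 3 of 9 changed (26.7% of all features). Fhl2 fell by 0.77 ± 0.16 (0.00113), while in the controls it had a log2 fold change of -0.08 (0.765); the comparisons share no arrays. Pdlim5 rose by 0.44 (0.0382) and Pdlim7 by 0.39 (0.0482), calls kept in 2 and 1 of 8 fits without 1 array. These Pdlim5 results are for its brightest probe. At ILMN_2771219 and ILMN_3137570 the rise was called in controls (adjusted p = 1.14e-05 and 7.7e-08 by limma, over all probes). In knockouts these probes rose by 0.63 and 1.02 (0.0109 and 1.52e-05). Markers of visceral yolk sac endoderm and erythroid cells, given below, also changed between these stages. Their part in the member changes was not tested.

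The order of levels over the groups differed between members. All arrays of E8.75 were the bright ones, so the places of the E8.75 groups cannot be told apart from brightness. Fhl2 was highest in the 3 control groups, which overlapped each other (6.70 to 7.42), then in the E8.5, E8.75 and E9.0 knockouts. The E8.5 and E8.75 knockouts, 6.03 ± 0.38 and 5.80 ± 0.17 (SD, n = 4), overlapped, and the E9.0 knockouts (5.26 ± 0.20) lay below both. For Pdlim7 the order was E9.0 controls (10.53 ± 0.14), E8.5 controls (10.21 ± 0.18), E9.0 knockouts (10.05 ± 0.26), E8.75 controls (9.80 ± 0.21), E8.5 knockouts (9.66 ± 0.11) and E8.75 knockouts (9.03 ± 0.27). For Fhl1, 5 groups stood between 11.61 and 11.81 and the E9.0 controls at 11.10.

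Other LIM proteins of the actin cytoskeleton were read from a list of 34 genes, of which 21 were measured. None passed between genotypes at either earlier stage in limma, where 0 and 1 had an unadjusted p under 0.05 (209 and 1356 of 11008 features). At E9.0, 4 of 21 changed (background 13.2%): Fblim1, or migfilin, which binds filamin, fell by 0.81 ± 0.18 (SE, adjusted p = 0.00442), Lima1, an actin bundling protein also called EPLIN, fell by 0.56 ± 0.17 (0.025), and Limd1 fell by 0.38 ± 0.11 (0.0205). Wtip, of the same Ajuba family as Limd1, rose by 0.56 ± 0.13 (0.00513). For the mean over the stages 3 of 21 were called (background 8.14%). Fblim1 and Lima1 fell and Wtip rose, by 0.40, 0.32 and 0.24 on the log2 scale. The median of the 21 was -0.02 for the mean and -0.04 at E9.0. The 4 alpha-actinins, on which PDLIM proteins dock, gave 0 calls between genotypes at any stage, with 0 at an unadjusted p under 0.05 and medians from -0.08 to 0.10.

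Markers of muscle were read beside these genes because FHL and PDLIM proteins are abundant there. Of 13 genes of cardiomyocytes and muscle, 7 were kept; Myh6, Myh7, Tnnt2, Myl7, Nppa and Ttn were not. Their summed normalized signal ran from 560 to 625 in the E9.0 controls and from 378 to 489 in the E9.0 knockouts, without overlap. Of the 7, 1 was called at E9.0 and at E8.75, the cardiac actin Actc1, which was lower (adjusted p = 0.000212 and 0.0283 by limma). Of all features, 13.2% and 0.527% were called at these stages. The Actc1 probe was not well above background on any knockout array of either stage. Des, which was not called, made up the largest part of the E9.0 sums, with mean log2 levels of 8.28 in controls and 7.89 in knockouts. At E8.75 the sums overlapped (459 to 752 against 494 to 634). Smooth muscle sums over 3 of 6 genes (Myh11, Cnn1 and Lmod1 were not kept) ran from 1810 to 2470 in E8.5 controls and from 1010 to 1610 in E8.5 knockouts, also without overlap. Acta2 made up most of these sums, with mean log2 levels of 10.79 in E8.5 controls and 10.01 in E8.5 knockouts. Smtn (8.10 and 8.04) and Tagln (4.58 and 4.51) differed little there. The smooth muscle sums overlapped at E8.75 (1550 to 3270 against 1010 to 1710) and at E9.0 (1220 to 2210 against 791 to 1520). Of the 3 genes 1, Acta2, was called for the mean over the stages, a fall of 0.73 (adjusted p = 0.0153 by limma). For the mean 8.14% of all features were called. Of 9 erythroid genes 7 fell at E9.0 (13.2% of all features were called), with sums of 61200 to 100000 against 1190 to 33100. Of 8 endothelial genes 1 fell at E9.0, Emcn, a share near that of all features. Of 6 genes of notochord and gut 3 fell at E9.0, Noto, Foxa1 and Foxa2. Of 8 visceral yolk sac genes, 4 rose at E8.75, from sums of 492 to 1520 to sums of 2130 to 13600. At E8.5 the sums of cardiomyocyte and muscle genes overlapped (507 to 718 against 491 to 707). The part of these cell types in the FHL and PDLIM results was not tested.

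The genes most like the called members were found by the root mean square difference of their 6 centred group means, over all named features. Nearest to Fhl2 were Zfp101 (0.21), Cnn2 (0.25), an actin-binding calponin, and Dennd1c (0.30). Pdlim7 was nearest to Actb, cytoplasmic actin, at the brightest of its 5 kept probes, which disagree (0.09), then to Emilin2 (0.12) and Edem1 (0.17). For Pdlim5 and Pdlim3, Cdc42ep3, an effector of the GTPase Cdc42, stood at 0.04 and 0.11; the others were Prokr2 (0.06) and Sall3 (0.08) for Pdlim5 and Jdp2 (0.10) and Agpat1 (0.11) for Pdlim3. Closest to Fhl1 were Got1 (0.04), Clstn3 (0.05) and Hmgxb3 (0.05), whose E9.0 genotype effects were 0.58, 0.56 and 0.49. These are descriptions of 6 means each, and flatter profiles come closer by construction. Shared regulation was not tested, and whether these genes lie on the chromosome of Srf was not examined.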

How the data were processed

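Total RNA of caudal ends was turned into biotinylated cRNA and read on 24 Illumina bead arrays, per the labels' protocols; the submitters' processing notes name GenomeStudio, with settings not given in the sources used here. The deposited non-normalized table holds, per the file headers, a linear intensity and a detection p-value for every probe and array. The deposited value table holds intensity that the authors normalized, read as quantile normalization from its values. The function neqc of limma 3.58.1 (R 4.3.3) corrected the background (normexp, offset 16), normalized between arrays by quantiles and took log2. A probe entered when 4 or more arrays had it at a detection p under 0.05 (14927 of 25697; 23978 carry 1 symbol, 1719 none), and the brightest probe stood for a gene. Group means over all 24 arrays were fitted together, with moderated tests and Benjamini-Hochberg adjustment over all 11008 features, or over all 14927 probes where a dimmer probe is named. The code was tested on simulated data. Named genes were the members, Srf, called genes of the fixed lists, and the 3 nearest profiles of each called member. The members, lists and tests were chosen with earlier results of these data known. Gene positions and promoters are from RefSeq (GRCm38.p6).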

Additional observations from a re-analysis of the deposited data

Results flagged for a closer look

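Pdlim3 in knockout E9.0 replicate 3 read 6.50 and stood apart from the other three arrays of its group, which read 6.80 to 6.86. Pdlim5 in knockout E8.5 replicate 4 read 6.30, against 5.94 to 6.00 on the others. Both lay apart by Dixon's criterion at 95%, which chance meets in about 1 group of 20, and 54 combinations of gene and group were examined. The dimmer Fhl1 probe ILMN_2713285 was picked out because its genotype effect differed between stages (adjusted p = 0.0435 over all probes, by limma, with effects of 0.12, -0.10 and 0.67), while the brighter probe did not pass (0.126).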

How the results depend on the processing

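The falls of Fhl2 at the later stages and over all of them, the mean falls of Pdlim5 and Pdlim7 and the rise of Fhl1 at E9.0 were called in every alternative run. For Pdlim5 this holds at its brightest probe or the mean of its probes, while its dimmer kept probes alone were not called. Leaving out 1 array in turn gave 0 to 1 members called at E8.5, 1 to 2 at E8.75, 2 to 3 at E9.0, 3 to 5 for the mean, 2 to 3 between stages in controls, 1 to 2 in knockouts and 0 for the change of the effect. With array weights 1 member was called at E8.5, 3 at E8.75, 6 at E9.0, 6 for the mean, 7 and 5 between stages in controls and knockouts, and 1, Fhl1, for the change of the effect. Without the arrays of E8.75, 1 was called at E8.5 and 6 at E9.0; with only the groups compared, 1 at E8.75 but 5 at E9.0; with the mean of a gene's probes, 1 at E8.5 and 6 for the mean; and with no filter on dim probes, 1 between stages in knockouts. Allowing 1 mismatch, 4 members had a CArG box (23.7% of all genes with a window). The cause of these shifts was not tested.

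Counts over all features moved as well: at E8.75, 58 became 512 with array weights, 34 with offset 50 or the deposited values and 5 with only the groups compared; at E9.0, 1454 became 3012 with array weights, and for the mean 896 became 1868. Array weights took the change of the effect from 104 to 1046. Leaving out 1 array gave 20 to 131 at E8.75 and 35 to 201 for the change of the effect, so the background shares move with it.

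The replicate block gave 0, 2 and 4 calls at the stages, 4 for the mean, 3 and 2 between stages and 0 for the change of the effect, and 57 instead of 104 features for that change. With the block Pdlim3 at E9.0 became a call (adjusted p = 0.0459) and Pdlim7 between stages in knockouts lost its call. The labels give a replicate number without saying what it stands for. Of 12 same-numbered pairs, 2 correlated above 0.1 (from -0.26 to 0.40). Both were at E8.5, replicates 1 (0.40) and 3 (0.21), where the same number was the closest match. With 4 arrays per group these correlations cannot decide whether arrays were paired.

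Directions turned only in comparisons where the member was not called in the main fit. Under array weights Pdlim1 read -0.0368 and Pdlim4 -0.0892 at E8.5, Fhl1 0.0280, Fhl3 0.0419 and Pdlim4 -0.0737 at E8.75, and Pdlim1 0.10 between stages in controls. Leaving out 1 array gave ranges at E8.5 of -0.15 to 0.0157 for Fhl3, -0.15 to 0.24 for Pdlim1, -0.000527 to 0.0601 for Pdlim2 and -0.0810 to 0.0660 for Pdlim4. At E8.75 they were -0.12 to 0.0909 for Fhl1, -0.10 to 0.0462 for Fhl3 and -0.0197 to 0.13 for Pdlim4, and between stages in controls -0.11 to 0.15 for Pdlim1. The Fhl3 values are differences between signals at or near background (detected on 1 of 8 arrays at E8.5 and 0 of 8 at E8.75) and their sign carries no information.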
